A study of Mus musculus with 4 samples.

Results

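The ATPases of the SWI/SNF chromatin remodelling complex and the subunits shared by its BAF and PBAF forms were followed in mouse embryonic stem cells after knockdown of the ATPase Brg1. The members were chosen by name, as all probe sets whose gene symbol in the platform annotation is Smarca4, Smarca2, Smarcb1, Smarcc1, Smarcc2, Smarcd1, Smarcd2, Smarcd3, Smarce1 or Actl6a. Of these 10 genes, 9 had probe sets in the table used here, 18 in all, among 12393 genes and 22690 probe sets. Smarcc2, which encodes the BAF170 scaffold subunit, had none and was not analysed here. Expression was measured on 4 Affymetrix arrays. A first pair came from R1 cells, an established mouse embryonic stem cell line, that had been given a lentiviral short hairpin RNA (shRNA) against Brg1. The other pair came from R1 cells given a lentiviral control shRNA against GLUT4, the glucose transporter encoded by Slc2a4. All cells carried a virus and an shRNA, and all were harvested 67 h after infection, so no uninfected cells were compared. Per the series' design text each infection was done in duplicate. The p-values therefore rest on the spread between duplicates of 1 cell line. The test used, limma, moderates the spread of a gene with that of other genes of like signal.

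SWI/SNF complexes use the energy of ATP to slide or evict nucleosomes, which opens or closes DNA for transcription factors. Each complex holds a single ATPase, either BRG1 (Smarca4) or BRM (Smarca2), around which the core subunits SNF5 (Smarcb1), BAF155 and BAF170 (Smarcc1 and Smarcc2), a BAF60 protein (Smarcd1, Smarcd2 or Smarcd3), BAF57 (Smarce1) and BAF53A (Actl6a) are assembled. The form known from mouse embryonic stem cells is built on BRG1, BAF155, BAF60A and BAF53A, while BRM, BAF170 and BAF60C are low in it or absent and are known from differentiated cells.

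The deposited values are signals on a linear scale, and all 4 arrays had the same trimmed mean of 200.1 signal units. Differences are given as log2(signal + 20.0), knockdown minus control, on which the pseudocount of 20.0 units understates the change of dim genes. For each gene with several probe sets the one with the highest mean was used, unless it ends in _x_at, a suffix that marks probes which may bind several transcripts. Genes with a mean below 23.9 units, the 40th percentile, were not tested. Of the 9 member genes, 8 were tested, and Smarcd3 reached the filter through its knockdown arrays alone. The labelled cell type was checked on its markers, and all 9 embryonic stem cell markers, among them Pou5f1, Sox2 and Nanog, lay between 479 and 5645 units on every array. The 10 fibroblast markers, which would mark feeder cells, summed to 122.6 and 135.5 units on the knockdown arrays and to 124.5 and 137.4 units on the control arrays. Only Thy1 among them reached the filter, and none was at 0 on all arrays. Slc2a4, the target of the control shRNA, had 20.9 and 23.9 units in the knockdown and 11.7 and 19.2 units in the control, and lay below the filter.

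Of the 8 member genes tested, Smarca4 and Smarce1 fell, Smarcd3 rose and 5 did not pass the test (limma, Benjamini-Hochberg adjusted p under 0.05 over 7815 genes). In the same comparison 14.4% of all genes tested passed, 9.33% higher and 5.09% lower in the knockdown. Of the 3 calls, Smarca4 is the shRNA target itself and Smarcd3 reached the filter only because it was higher in the knockdown, so the count says nothing about the members as a group. The median log2 difference of the 8 genes, given as a description, was -0.021, beside 0.035 for all genes tested. In 4 of the 8 genes the knockdown arrays did not overlap the control arrays, and this held for 60.2% of all genes tested, so that share does not set the members apart. When each probe set was tested by itself, 15 of the 18 member probe sets passed the filter and only the pair of Smarca4 passed the test, with 9.13% of 13576 probe sets called.

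**Figure D1:**
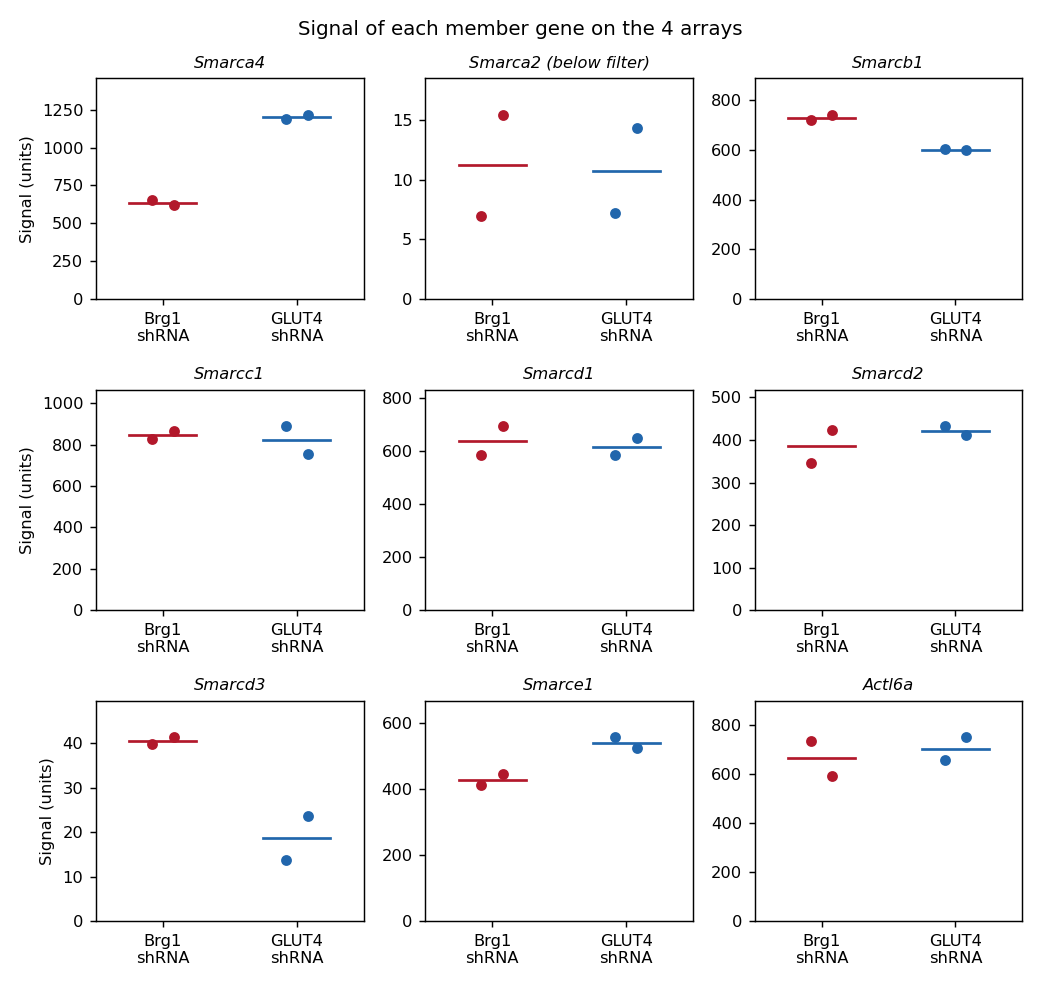
Signal in units on a linear axis from 0 for the probe set used for each of the 9 member genes, with the knockdown arrays (Brg1 shRNA, red) left of the control arrays (GLUT4 shRNA, blue). Points are arrays and lines are means of 2 arrays, and the axes differ between genes. Smarca4 lies near 637 units in the knockdown and 1200 units in the control, while Smarcc1, Smarcd1, Smarcd2 and Actl6a overlap between the groups.

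Smarca4 encodes BRG1, the ATPase targeted by the shRNA. It had 652.1 and 621.5 units on the knockdown arrays, against 1186.6 and 1213.6 units on the control arrays. Both knockdown arrays lay far below both control arrays, and the gap between duplicates was small in each group. The mean signal was 636.8 ± 21.6 units in the knockdown and 1200.1 ± 19.1 units in the control (SD, n = 2 each), so that 53.1% of the control signal remained, with 51.2% and 55.0% as the lowest and highest values over single pairs of arrays. The log2 difference was -0.89 ± 0.08 (SE), with a 95% interval from -1.07 to -0.72 (limma, adjusted p = 0.000232). By size this was number 26 of the 398 falls, and by p-value it ranked 23 of all 7815 genes tested. These are bulk samples, so a partial loss of Smarca4 RNA in every cell and a fuller loss in part of the cells cannot be told apart.

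The second Smarca4 probe set, 1426805_at, had 84.7 and 75.7 units in the knockdown, against 158.4 and 161.5 units in the control. It left 50.1% of the control signal, close to the first, and its log2 difference was -0.85 ± 0.13 (SE; limma on every probe set, adjusted p = 0.00617). This probe set lost its call with the arrays scaled to spike-ins (-0.57, adjusted p = 0.0546). Smarca4 as a gene, for which the first was used, remained lower and past the test under all 15 alternatives tried. The log2 differences lay between -0.94 and -0.57, with the mean of both probe sets, 1 of these alternatives, at -0.87. As reported, the 95% interval of Smarca4 did not overlap that of any of the other 7 member genes tested. That comparison is between the probe sets used for the genes, since the interval of the further Smarcb1 probe set, -0.97 to -0.19, does overlap it.

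Smarca2 encodes BRM, the alternative ATPase. Its brighter probe set, 1452333_at, had 7.0 and 15.4 units in the knockdown and 7.2 and 14.3 units in the control. The other, 1430526_a_at, had 1.8 and 10.7 units in the knockdown and 6.1 and 7.0 units in the control. Every value lay below the filter level of 23.9 units, the groups overlapped on both probe sets, and the log2 differences were 0.017 and -0.037. No rise of Smarca2 beside the fall of Smarca4 was therefore detectable, and at this signal a change of the gene below the filter cannot be read. Without the filter the adjusted p of Smarca2 was 0.973.

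Smarcb1 encodes SNF5 (BAF47), a core subunit and tumour suppressor, and its probe sets went opposite ways. The one used for the gene, 1416045_a_at, had 719.2 and 740.2 units in the knockdown, against 605.2 and 598.6 units in the control, and both knockdown arrays were the higher ones. The other, 1435856_x_at, had 150.8 and 100.8 units in the knockdown, against 182.0 and 209.3 units in the control, and here both knockdown arrays were the lower ones. The log2 differences were 0.27 ± 0.08 (SE; limma, adjusted p = 0.0549) and -0.58 ± 0.17 (SE; limma on every probe set, adjusted p = 0.0677), and neither passed. The second probe set passed with median centring (adjusted p = 0.0393) and without knockdown replicate 1 (-0.83, adjusted p = 0.00735), and was at -0.33 without knockdown replicate 2 (adjusted p = 0.266). The probe set used for the gene passed as a rise with the arrays scaled to spike-ins (0.59, limma, adjusted p = 0.0442), where most called genes were higher. It also passed with a block of crossed duplicates, an alternative chosen after seeing the data (adjusted p = 0.0387). The second probe set passed as a fall with that block too (adjusted p = 0.0150) and with same-numbered duplicates as the block (0.0309). With the mean of both probe sets the gene's difference turned to -0.16 (adjusted p = 0.338). Of 3071 genes with at least 2 tested probe sets, 9.54% likewise had probe sets whose arrays did not overlap in opposite directions. Whether the Smarcb1 RNA changed cannot be read from this pair.

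Smarcc1 encodes BAF155, the scaffold subunit of the stem cell complex. Its probe set 1423416_at had 826.0 and 864.3 units in the knockdown and 888.7 and 753.3 units in the control. The groups overlapped, and the log2 difference was 0.045 with a 95% interval from -0.17 to 0.26 (limma, adjusted p = 0.781). The second probe set, 1423417_at, had 250.3 and 263.9 units in the knockdown and 280.6 and 267.5 units in the control. There both knockdown arrays were the lower ones. Its log2 difference was -0.086 (limma on every probe set, adjusted p = 0.627), opposite in sign to the first. These intervals leave room for changes of about 0.3 on the log2 scale and not for a fall of the size of Smarca4's: the second probe set's interval ran from -0.32 to 0.15.

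The Smarcd genes encode the BAF60 proteins, which link the complex to transcription factors. Smarcd3 encodes BAF60C, known from heart and skeletal muscle. It had 39.9 and 41.3 units on the knockdown arrays, against 13.9 and 23.6 units on the control arrays. The groups did not overlap, and both control arrays lay below the filter level of 23.9 units. The mean was 40.6 ± 0.99 units in the knockdown and 18.8 ± 6.86 units in the control (SD, n = 2 each), and the log2 difference was 0.66 ± 0.18 (SE; limma, adjusted p = 0.0427). By size it was number 271 of the 729 rises. The size depends on the pseudocount, at 0.97 with 2.5% of the trimmed mean and 0.40 with 25% in place of 10%. With the filter at the 60th percentile Smarcd3 was not tested. The call was lost without knockdown replicate 1 (adjusted p = 0.0565), knockdown replicate 2 (0.0999) or control replicate 1 (0.264), without the filter (0.119), with quantile normalization (0.0662) and when every probe set was tested by itself (0.0594).

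Summed signals of several marker lists were also higher on both knockdown arrays, though not that of the fibroblast list given above. The 9 embryonic stem cell markers summed to 18345 and 18017 units in the knockdown, against 17052 and 17157 units in the control, with Nanog, Esrrb and Fgf4 past the test and higher. Of the 9 log2 differences 6 were positive and 3 negative, those of Sox2 (-0.22), Tdgf1 (-0.12) and Dppa5a (-0.0096). None of these 3 passed, though Sox2 was lower on both knockdown arrays (limma, adjusted p = 0.125). The 6 trophectoderm markers summed to 1390 and 1500.1 units on the knockdown arrays, against 857.2 and 903.4 units on the control arrays, and Krt8 and Tfap2c were past the test and higher. So was Hand1, which reached the filter through its knockdown arrays alone (43.8 and 57.0 units, against 18.9 and 21.6 units in the control). Krt18 did not pass (log2 difference 0.19, limma, adjusted p = 0.174), and Cdx2 and Gata3 lay below the filter. Krt8 and Krt18 held most of this sum on every array, with Krt8 at 690.0 and 785.1 units in the knockdown, against 326.1 and 372.2 units in the control. The 7 mesoderm and heart markers found on the array summed to 101.5 and 136.0 units in the knockdown, against 91.1 and 80.1 units in the control. Myh6 was the only one of them above the filter, which it reached through its knockdown arrays alone (27.2 and 38.3 units, against 22.4 and 17.6 units in the control). Its log2 difference of 0.39 did not pass (limma, adjusted p = 0.181). The 6 neural markers summed to 409.0 and 435.6 units in the knockdown, against 289.8 and 369.1 units in the control, and 0 of 3 tested passed. None of the markers of these lists was at 0 on all arrays. The part of any of these cell types in the signal of Smarcd3 was not tested.

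Smarcd1 encodes BAF60A, the member of the family found in the stem cell complex. It had 583.2 and 692.1 units in the knockdown and 582.9 and 646.7 units in the control, with overlapping groups. The log2 difference was 0.048 with a 95% interval from -0.18 to 0.28 (limma, adjusted p = 0.788). Its second probe set, 1420240_at, stayed at or below 11.4 units on every array and was not tested. Smarcd2, which encodes BAF60B, had 3 probe sets above the filter. The one used for the gene, 1448401_at, had 346.3 and 424.4 units in the knockdown and 432.0 and 412.0 units in the control. Its log2 difference was -0.13 with a 95% interval from -0.38 to 0.12 (limma, adjusted p = 0.453), and the others gave -0.078 and -0.22 (adjusted p = 0.657 and 0.455). All 3 Smarcd2 probe sets were thus slightly lower in the knockdown on the deposited scale, none past the test. The probe set at -0.22, 1426192_at, was dim. It had 26.3 and 36.8 units in the knockdown, against 36.9 and 42.3 units in the control, without overlap. With the arrays scaled to spike-ins all 3 differences were positive.

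Smarce1 encodes BAF57, a subunit with an HMG domain that binds DNA. It had 411.7 and 444.6 units on the knockdown arrays, against 556.6 and 524.1 units on the control arrays, without overlap. The mean was 428.2 ± 23.3 units in the knockdown and 540.4 ± 23.0 units in the control (SD, n = 2 each), which is 79.2% of the control signal. The log2 difference was -0.32 ± 0.09 (SE; limma, adjusted p = 0.0447), number 344 of the 398 falls by size. Its second probe set, 1422676_at, had 340.4 and 382.1 units in the knockdown and 423.4 and 364.4 units in the control. There the groups overlapped, with a log2 difference of -0.12 (limma on every probe set, adjusted p = 0.533). The call was lost without any single array (adjusted p between 0.0624 and 0.165), without the filter (0.0868), without the intensity trend (0.0973) and with the mean of both probe sets (0.148). When every probe set was tested by itself, the probe set used for the gene had an adjusted p of 0.0672.

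Actl6a encodes BAF53A, an actin-related protein of the stem cell complex that is also part of other chromatin complexes. Its probe set 1416569_at had 734.1 and 592.4 units in the knockdown and 657.9 and 748.8 units in the control. The log2 difference was -0.087 with a 95% interval from -0.34 to 0.17 (limma, adjusted p = 0.640). The other probe set, 1456730_x_at, had 615.2 and 1006.0 units in the knockdown and 978.5 and 685.9 units in the control. The log2 values of its duplicates differed by 0.69 in the knockdown and by 0.50 in the control, far more than the difference of -0.057 between the groups.

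**Figure D2:**
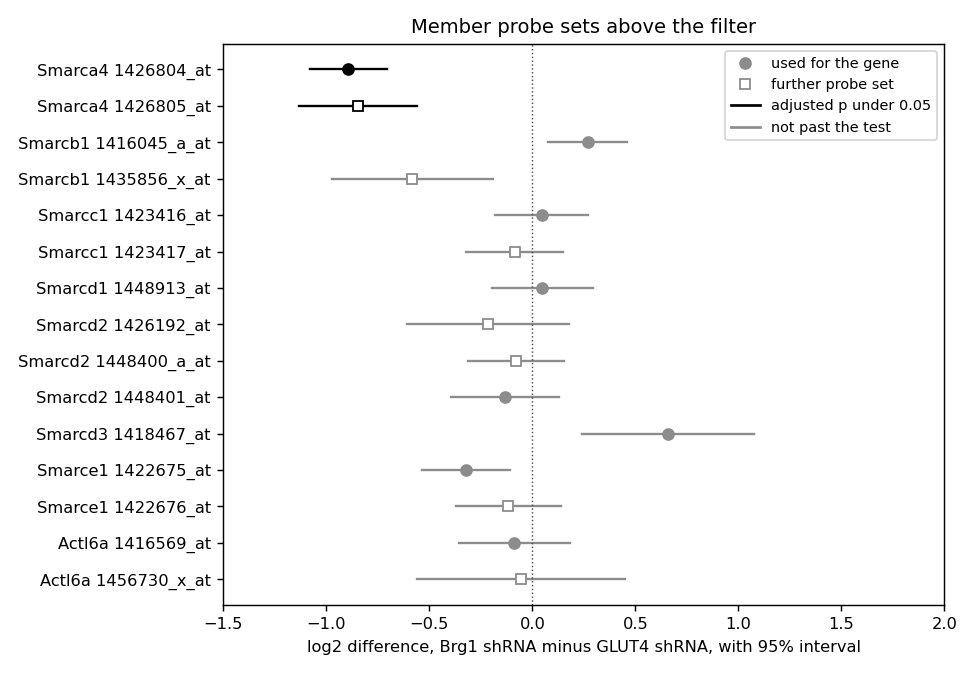
Log2 difference (knockdown minus control) of the 15 member probe sets above the filter, with 95% intervals from limma fitted on every probe set. Filled circles are the probe sets used for a gene, open squares are further ones, and black marks an adjusted p under 0.05. Only the pair of Smarca4 passed, at -0.89 and -0.85, and the Smarcb1 pair lies on opposite sides of 0, at 0.27 and -0.58.

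Grouped by the known make-up of the stem cell complex, its 4 typical genes gave 1 fall, the targeted Smarca4, and 3 that did not pass (Smarcc1, Smarcd1 and Actl6a, with log2 differences between -0.087 and 0.048). Of the 3 paralogues known to be low in or absent from it, Smarcd3 was higher but reached the filter through its knockdown arrays alone, Smarca2 lay below the filter and Smarcc2 had no probe set, so nothing can be read about these as a group. Of the remaining 3, Smarce1 fell and Smarcb1 and Smarcd2 did not pass. Probe sets of 1 gene had the same sign in 4 of the 6 member genes with at least 2 tested probe sets, Smarca4, Smarcd2, Smarce1 and Actl6a, and in 61.5% of the 3071 genes of that kind on the array.

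**Figure D3:**
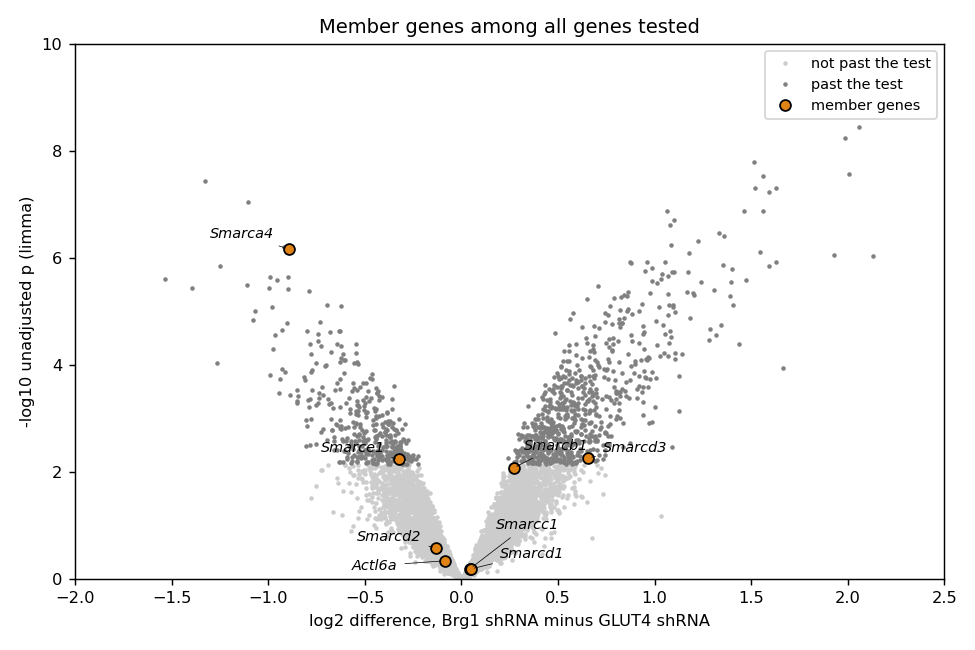
Log2 difference (knockdown minus control, x axis) against -log10 of limma's unadjusted p (y axis) for all 7815 genes tested, with the 8 tested member genes in orange; 2 genes with larger rises lie beyond the x axis. Smarca4 stands among the strongest falls at -0.89, Smarce1 and Smarcd3 lie just past the test and Smarcb1 just short of it.

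Other subunits, among them those that distinguish the forms of the complex, moved both ways. Of 20 other SWI/SNF subunit genes named, 15 had a probe set and 12 were tested, of which 2 rose, 2 fell and 8 did not pass (median log2 difference -0.043), beside the 14.4% called among all genes tested. Arid1a, the DNA-binding subunit of BAF, had 2284.9 and 2186.3 units in the knockdown, against 1673.8 and 1773.0 units in the control, a log2 difference of 0.37 (limma, adjusted p = 0.00925). Ss18, a BAF subunit, rose by 0.32 (adjusted p = 0.0364). Brd7, a bromodomain subunit of PBAF, fell by 0.44 (adjusted p = 0.0264), and Bcl11b, a zinc finger protein, fell by 0.66 (adjusted p = 0.0357), with 14.3 and 16.7 units in the knockdown against 32.7 and 39.7 units in the control. Bcl11b reached the filter through its control arrays alone. Actl6b, the neuronal paralogue of Actl6a, had at most 3.30 units on any array and was not tested.

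Of 16 ATPases of other remodelling complexes named, 13 were on the array and all 13 were tested, of which 2 rose, 2 fell and 9 did not pass (median log2 difference 0.0040), again beside 14.4% of all genes tested. Smarca1, an ATPase of the ISWI family, had 127.8 and 71.9 units in the knockdown, against 165.5 and 196.5 units in the control, a log2 difference of -0.78 (limma, adjusted p = 0.0313). Hells, an ATPase needed for normal DNA methylation, fell by 0.41 (adjusted p = 0.0141). Smarcad1 rose by 0.43 (adjusted p = 0.00776) and Ino80, the ATPase of the INO80 complex, by 0.37 (adjusted p = 0.0401). Whether the change of Smarca4 differed from that of Smarca1 was not tested, and their 95% intervals overlap.

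The 5 tested genes whose log2 profile over the 4 arrays, centred on its own mean, lay nearest to that of Smarca4 by Euclidean distance were Otx2, Bcat1, Mpdz, Slc16a3 and Mid1ip1, at distances between 0.044 and 0.11. Otx2, a homeobox factor of the epiblast, had 236.2 and 222.8 units in the knockdown, against 449.2 and 439.6 units in the control. Bcat1, an enzyme of branched-chain amino acid metabolism, had 625.1 and 603.0 units in the knockdown, against 1145.6 and 1213.2 units in the control. The log2 differences of these 5 genes lay between -0.97 and -0.90, and 4 arrays in 2 groups hold little more of a profile than that difference.

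**Figure D4:**
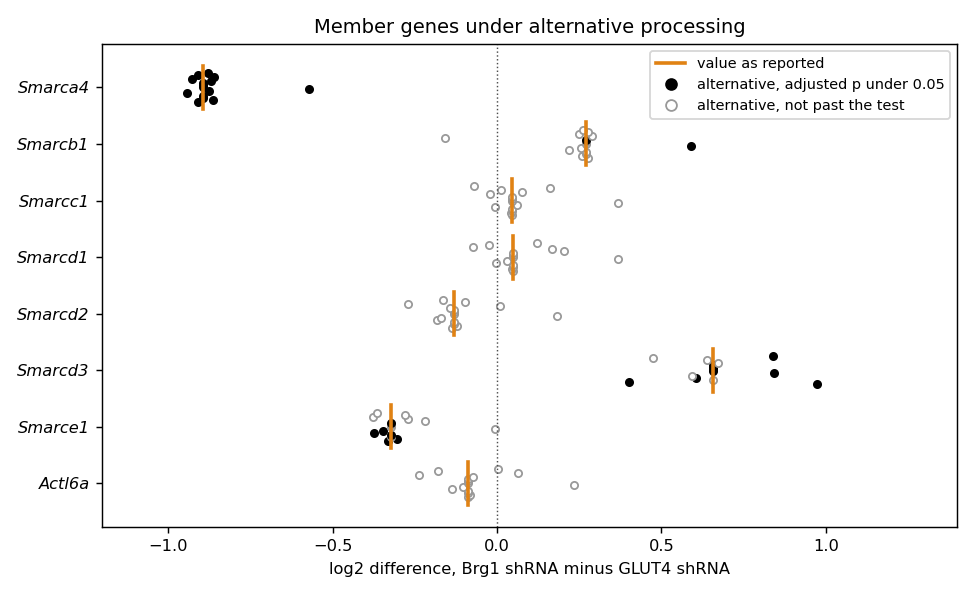
Log2 difference (knockdown minus control) of the 8 tested member genes as reported (orange bars) and under each alternative setting that tested the gene (circles; filled where the adjusted p was under 0.05). Smarca4 is filled throughout, between -0.94 and -0.57, and Smarcc1, Smarcd1, Smarcd2 and Actl6a have no filled circle.

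The direction of a change is relative to the deposited scale. The 18 probe sets for hybridisation spike-ins, transcripts added to the sample before hybridisation, had mean log2 signals of 9.44 and 9.14 on the knockdown arrays, against 9.67 and 9.57 on the control arrays. With each array scaled to these probe sets, the median log2 difference over the genes tested was 0.33. Of the genes tested 18.5% were then called, 1413 higher and 30 lower in the knockdown, so a call as higher on that scale does not set a gene apart. On that scale Smarca4 was at -0.57 (limma, adjusted p = 0.0459), Smarce1 at -0.0057 (0.987), Smarcd3 at 0.84 (0.00359) and Smarcb1 at 0.59 (0.0442). Relative to that median they were at -0.90, -0.33, 0.52 and 0.26.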

How the data were processed

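The deposited values are linear signal intensities, 1 for each probe set on each array, made by the authors with the Affymetrix software GCOS, per the submitters' processing notes. The GCOS version, algorithm and scaling target were not given in the sources used here. No detection call or scanner file was used. All 4 arrays had a mean of 200.1 once 2% of the probe sets were trimmed from either end. The number of arrays limits the precision.

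The 64 control probe sets were left out. Of the others, 20380 had 1 gene in the platform annotation, 691 several and 1555 none. Entrez IDs gave current symbols from the GRCm38.p6 RefSeq table for 20351 of them. Signals were analysed as log2(signal + 20.0), the pseudocount being 10% of the trimmed mean. Knockdown and control were compared with limma 3.58.1 in R 4.3.3 (lmFit, eBayes with an intensity trend, two-sided, Benjamini-Hochberg over all features tested), once with 1 probe set a gene and once with every probe set. Alternatives changed the pseudocount (2.5% or 25%), the filter (none or the 60th percentile), the scaling, the variance model, the probe set rule, the threshold (0.01) and the block, by adding the replicate number, and dropped each array once.

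Named were all members, other SWI/SNF genes and other remodeller ATPases (at most 4) that passed the test, and the 5 genes most like Smarca4. The marker genes given as examples, Actl6b and Myh6 were chosen with their values in view. The members and lists were chosen with earlier results of these data known.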

Additional observations from a re-analysis of the deposited data

How the results depend on the processing

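Of 323 recomputed values, 260 stayed the same by the following rules. Tested differences kept their direction and their side of the threshold, and counts stayed within 1.5 times. Differences without a test, as reported or in the alternative, moved by no more than the spread between duplicates. Smarcd3 with the filter at the 60th percentile is among these last, although it had no call there. Of all genes 1127 were called, against 433 without the filter, 393 at a threshold of 0.01 and 601 to 1171 with 1 array left out, the lowest without knockdown replicate 2 and 719 without control replicate 1. Of all probe sets 1240 were called, against 452 without the filter, 2202 with spike-in scaling, 747 without the intensity trend, 337 at 0.01 and 551 to 1693 with 1 array left out (646 without knockdown replicate 2, 551 without control replicate 1, 665 without control replicate 2). Of the genes called, 64.7% were higher in the knockdown, 51.0% with median centring and 97.9% with spike-in scaling. Of the member genes 3 were called, against 1, Smarca4, without the filter and at 0.01, and 1 to 2 with 1 array left out (Smarca4 alone without either knockdown array or control replicate 1). Of the member probe sets 2 were called, against 4 with median centring and 2 to 3 with 1 array left out.

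Same-numbered duplicates share only a number, and over 7815 genes their deviations from the group means correlated at -0.14. With the replicate block 4 member probe sets passed (those of Smarca4, 1435856_x_at of Smarcb1 and Smarcd3), and 5 with crossed pairs, an alternative chosen after seeing the data that called 2058 probe sets. Smarce1 had an adjusted p of 0.0599 with the replicate block.

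Signs turned for the following differences, none of them past the test as reported or as turned. With spike-in scaling Actl6a was at 0.23 and its 1456730_x_at at 0.27, 1423417_at of Smarcc1 at 0.22, Smarcd2 at 0.18, its 1426192_at at 0.00076 and its 1448400_a_at at 0.24, and 1422676_at of Smarce1 at 0.20. With the mean of all probe sets Smarcb1 was at -0.16 and Smarcc1 at -0.020, and with median centring Smarcc1 was at -0.0049 and Smarcd1 at -0.0022. With 1 array left out, Actl6a ranged from -0.24 to 0.063, its 1456730_x_at from -0.40 to 0.29, Smarcc1 from -0.071 to 0.16, Smarcd1 from -0.072 to 0.17, Smarcd2 from -0.27 to 0.0082 and its 1448400_a_at from -0.17 to 0.010. The causes were not tested. Smarca2, below the filter, turned to -0.033 with median centring, -0.073 with quantile normalization and -0.0099 with the mean of its probe sets, and ranged from -0.18 to 0.21 with 1 array left out. Its 1430526_a_at turned to 0.060 with spike-in scaling and ranged from -0.28 to 0.21, so no change of Smarca2 can be read.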
